A study of Homo sapiens with 18 samples.

Results

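The comparison concerns 18S ribosomal RNA in cells labelled FBL1 and FBL2, set directly against each other. It uses 12 of the 18 libraries of the series, 6 from each line, chosen by their labels and matched by primer pair; the scrambled control libraries of the same series were not used. All cells were MDA-MB-231, an established human breast cancer line. The series' design text describes knockdowns and the series concerns fibrillarin. That FBL1 and FBL2 both target fibrillarin is an inference, and no library here gives its level. Each line was given 2A3 or, as background, its solvent DMSO at 37 °C for 15 min. Every RNA was read with 3 primer sets, so every line, reagent and primer set is 1 library. Cells were seeded in duplicate wells per the series' design text, and the sources used here do not say whether a library pools both wells.

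Fibrillarin is the methyltransferase of the box C/D small nucleolar ribonucleoproteins, in which a guide RNA pairs with the ribosomal RNA precursor and directs methylation of the ribose 2′-hydroxyl of a chosen nucleotide. SHAPE reagents such as 2A3 acylate the same 2′-hydroxyl, and do so mainly on nucleotides that are flexible, as in loops and bulges, rather than held in a helix. A 2′-O-methylated ribose has no free hydroxyl at that place. The folded 18S rRNA has a 5′ domain that forms the body of the small subunit, a central domain that forms the platform, a 3′ major domain that forms the head, and a 3′ minor domain that holds part of the decoding centre.

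The positions that carry the comparison are shown here with 10 bases on either side, as the deposited files give the rRNA, 5′ to 3′, with the compared base in capitals. The first 5 had more 2A3 signal in FBL1 and the last 5 more in FBL2, and each passed the size rule described further on, in that direction, under all 7 ways of scaling that were compared, in at least 1 primer set. In all, 9 FBL1-higher and 6 FBL2-higher positions did so. This selection was made after the values were seen. Domain ends are approximate.
G420, 5′ domain: ggggaaucagGguucgauucc
A102, 5′ domain: auggcucauuAaaucaguuau
U689, central domain: aguuggaucuUgggagcgggc
G895, central domain: uauuuuguugGuuuucggaac
G1420, 3′ major domain: cgcgacccccGagcggucggc
U361, 5′ domain: gucugcccuaUcaacuuucga
U495, 5′ domain: aauuacccacUcccgacccgg
G838, central domain: gcaggcccgaGccgccuggau
C1247, 3′ major domain: cuuaauuugaCucaacacggg
A1402, 3′ major domain: uggcaugcuaAcuaguuacgc

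The files gave 2137 measurements in each line at 1816 distinct positions of the 1869 bases listed. Primer set 3 reads positions 25 to 815, and primer set 2 those from 614 to 1273. Primer set 1 reads those from 1155 to 1840. Over the 12 libraries a position was covered by 98418 to 644764 reads. Reactivity is the share of reads with an event at a position, deposited in steps of 0.1% of reads. At a reactivity of 1% the counting error was 0.0125% to 0.0310% of reads, below the largest rounding error of 0.05%. Errors after ± are the deposited counting errors for a reactivity, and the combined counting and rounding errors for a difference between the lines. Reads amplified by PCR with no molecular identifier can share a molecule, and this is in neither error. With 1 library per group no replicate check exists, no p-value is given, and a difference between the lines cannot be told apart from a difference between single libraries.

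The DMSO values of the lines were nearly the same. They were equal at 1856 of 2137 measurements (86.9%) and within 1 rounding step at 2121 (99.3%), and the largest gap was 0.4% of reads. G60 in primer set 3, with 95.5% in FBL1 and 95.4% in FBL2, had the highest DMSO value of its set. U1248 had the highest in the other sets, at 52.8% and 52.4% with primer set 1 and at 50.6% and 50.4% with set 2. Without these 2 positions the mean DMSO reactivity in FBL1 and FBL2 was 0.149% and 0.150% for primer set 3, 0.137% and 0.136% for set 2, and 0.137% and 0.138% for set 1. The corresponding 2A3 means were 0.890% and 0.774%, 0.650% and 0.576%, and 0.474% and 0.412%. The lines thus differed in the 2A3 libraries and hardly in the DMSO libraries.

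The first comparison asked whether the lines differ in their overall level. FBL1 had more 2A3 signal than FBL2, taken as 2A3 minus DMSO reactivity, in every primer set. The ratio of the mean signals was 1.19 for primer set 3 (0.740% of reads against 0.622%), 1.16 for set 2 (0.512% against 0.441%) and 1.24 for set 1 (0.331% against 0.268%). The FBL1 2A3 library was the deeper of the pair in primer set 2, at 452611 to 480750 reads against 356621 to 378396. It was the shallower in primer set 1, at 98418 to 103884 reads against 175484 to 192137.

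Across positions the profiles of the lines followed each other closely in percent of reads, with Pearson correlations of 0.987, 0.994 and 0.992 in primer sets 3, 2 and 1 over 791, 660 and 686 positions. Spearman correlations were 0.823, 0.802 and 0.739. Both are descriptions across positions of the same library pair. The unscaled difference was within 1 rounding step at 1733 of 2137 measurements (81.1%). Beyond 1 step FBL1 was above at 357 and FBL2 at 47.

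The excess of FBL1 was proportionally larger where signal was weak. At the 46 measurements with a mean signal of 5% of reads or more the ratio of means was 1.12, and at the 163 between 1% and 5% it was 1.15. At the 111 between 0.5% and 1% it was 1.18, and at the 1817 under 0.5% it was 1.45. This order held in primer set 1, where the strongest class had 1.07 and the weakest 1.55, and in primer set 3, with 1.14 and 1.41. In primer set 2 the ratios were 1.10, 1.12, 1.09 and 1.40 from the strongest to the weakest class. The classes include U1248 and G60, the positions of highest DMSO value. In primer set 2 U1248, with a signal of 0.2% in FBL1 and 0.8% in FBL2, falls in the class with 1.09 and lowers its ratio. U1248 in primer set 1 (-3.6% and -3.5%) and G60 (-0.7% and -1.0%) fall in the weakest class. There they raise the ratio. Class ratios without these positions were not computed. The weakest class had a mean signal of 0.127% in FBL1 and 0.0879% in FBL2, near the rounding step, and held 39.1% of the summed difference between the lines. Its 1.45-fold ratio is therefore a mean over many rounded values, and no single position of that class is described by it.

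**Figure D1:**
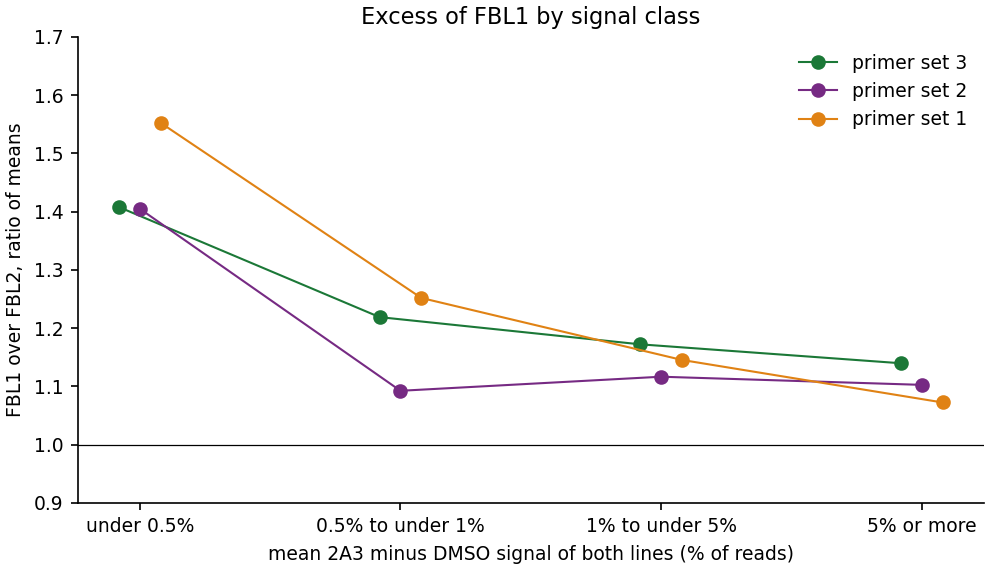
FBL1 over FBL2 ratio of mean 2A3 minus DMSO signal (vertical axis, starting at 0.9) in 4 classes of mean signal of both lines in percent of reads (horizontal axis), with 1 line of points per primer set. All 12 points lie above 1, from 1.07 to 1.25 in the classes of 0.5% and more and from 1.40 to 1.55 in the class under 0.5%. U1248 and G60 are included.

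At the 209 measurements with a mean signal of at least 1% the median of the per-position ratio was 1.12, with quartiles of 1.02 and 1.25. FBL1 was above FBL2 at 158 of them, below at 30 and equal at 21. For primer sets 3, 2 and 1 the median was 1.14, 1.09 and 1.12. By base it was 1.10 for A, 1.14 for C, 1.14 for G and 1.12 for U, with the primer sets pooled. In primer set 3 alone G had a median of 1.22, against 1.14 for A, 1.14 for C and 1.15 for U. In primer sets 1 and 2 G had 1.12 and 1.11, each matched or passed by another base. Over all measurements the ratio of means was 1.27 for G, 1.18 for A, 1.15 for C and 1.17 for U. Of the 209, 167 (79.9%) lay within 20% of the median ratio of their primer set. By domain the ratio of means was 1.20 in the 5′ domain, 1.17 in the central domain, 1.21 in the 3′ major domain and 1.23 in the 3′ minor domain. FBL1 had the higher mean in all 23 bins of up to 100 positions along the rRNA, with ratios from 1.03 to 1.53. Without U1248 and G60 the ratios of the 23 bins ran from 1.11, between positions 1201 and 1300 in primer set 1, to 1.53, between positions 1155 and 1200 in the same set.

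**Figure D2:**
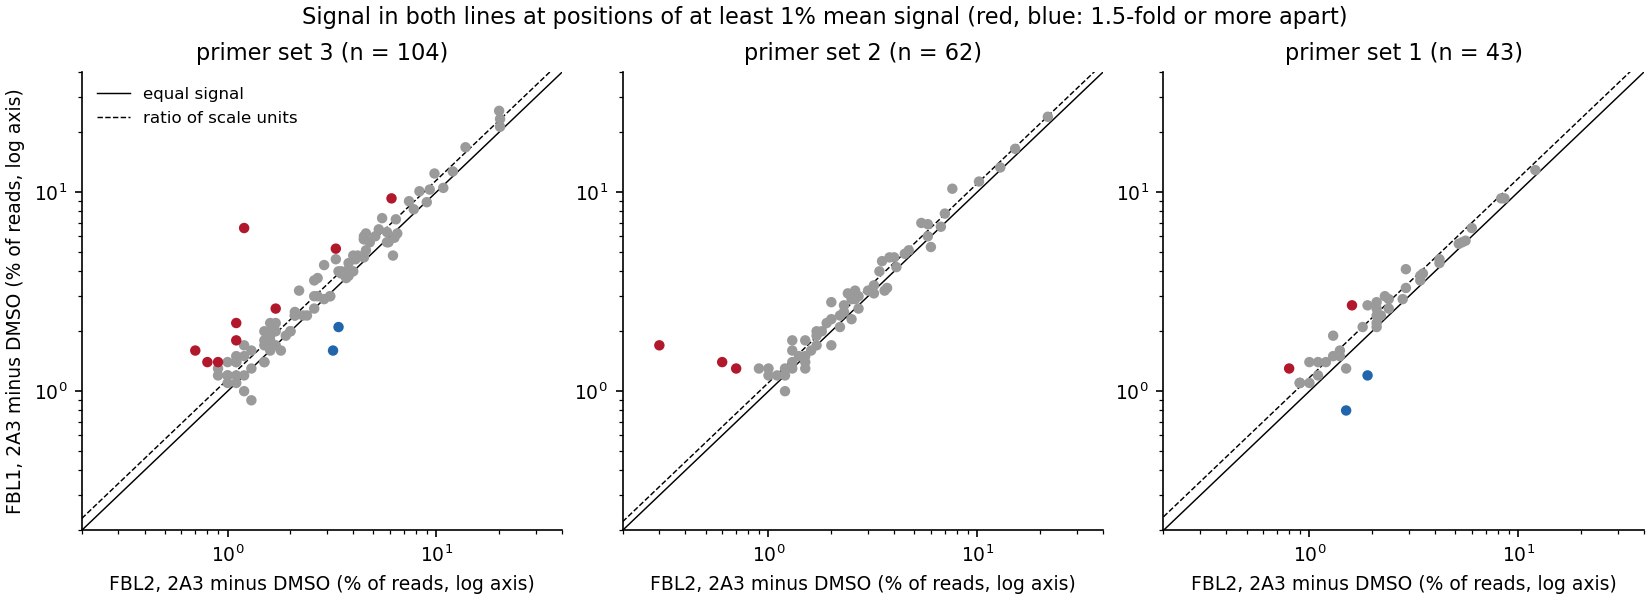
2A3 minus DMSO signal in FBL1 against FBL2, in percent of reads on log axes, at positions with a mean signal of at least 1%; the solid line marks equal signal and the dashed line the ratio of the scale units. Most points lie between or near the lines, and the coloured points are those 1.5-fold or more apart, 14 with FBL1 higher in red and 4 with FBL2 higher in blue.

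The spread around this median was widest on guanosines. Ratios of 1.5 or more occurred at 14 of the 209 measurements, and 9 of these 14 were guanosines, which make up 23.4% of the 209. Among the 14, G798, U742 and U689 had 1.56, 1.53 and 1.52 in primer set 3. Primer set 2 gave 1.11, 1.09 and 1.37 at the same positions. G807, also among the 14, had a ratio of 1.86 in primer set 2. Its 2A3 values there were 2.7% and 2.4%, so part of that ratio comes from unequal DMSO values. The G807 difference was 0.6% of reads in primer set 2 and 0.2% in primer set 3. All 5 ratios of 2 or more were guanosines, and none of the 39 adenosine measurements reached 1.5. The upper quartile of the ratio was 1.36 for G against 1.18 for A, 1.27 for C and 1.23 for U. G895 had the largest ratio, 5.67, followed by G420 at 5.50, G789 at 2.33, G70 at 2.29 and G71 at 2.00. Rounding alone could lower these to 4, 5, 1.86, 1.88 and 1.75. In the other direction 4 ratios were below 1/1.5, at U495, C1247, A500 and A1402, none of them a guanosine. These lists were drawn up after the ratios were seen.

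The next comparison asked which single positions differ in percent of reads, before any scaling. A position was called when the difference was at least 1% of reads and exceeded 1.96 times the combined counting and rounding errors. FBL1 was higher at 34 measurements (1.59%), at 29 distinct positions, and FBL2 at 3 (0.14%). In the DMSO values the same rule called 0 (0%) in either direction, with a largest gap of 0.4% of reads. Most DMSO values were too low for a gap of 1%, so this is no check on the noise of the 2A3 values. All 37 lay among the 209 measurements with at least 1% signal. By domain the FBL1-higher calls numbered 17 of 699 measurements in the 5′ domain and 14 of 725 in the central domain. They numbered 3 of 570 in the 3′ major domain and 0 of 143 in the 3′ minor domain. All 3 FBL2-higher calls lay in the 5′ domain. Of the FBL1-higher calls 14 were on U, 9 on G, 8 on C and 3 on A. These counts by domain and base include U689, U732, U743, C753 and C785 in both primer sets 2 and 3. A threshold in percent of reads favours strongly reactive positions, which are most frequent in primer set 3, where 23 of the 34 lay.

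To compare positions relative to the level of their own library pair, each line was scaled within each primer set so that 1 unit is the mean over the values that rank from the 90th to the 98th percentile. For primer set 3 the unit was 3.59% of reads in FBL1 and 3.13% in FBL2, for set 2 it was 2.15% and 1.95%, and for set 1 it was 1.34% and 1.15%. A position was called when the scaled difference was at least 0.3 units and exceeded 1.96 times its error. FBL1 was higher at 14 measurements (0.655%), at 13 distinct positions, and FBL2 at 27 (1.26%). Among the DMSO values, scaled by the same units, it called 0 with FBL1 higher and 3 (0.14%) with FBL2 higher, at U1248 in both its primer sets and at G60. At these 3 the DMSO value was slightly higher in FBL1 in percent of reads, and the called direction comes from the unequal units. The error of the unit itself is not in the rule, and on simulated data the rule also called positions that had not been changed. A unit set by the median ratio of the lines called none of those unchanged positions. The simulated lines differed by 1 common gain, which a median ratio recovers, while in the data the ratio ran from 1.12 to 1.45 between signal classes. The simulation therefore cannot tell whether calls with the median-ratio unit are free of such errors in the data. With that unit 19 were called in each direction, and these held all 14 of the FBL1-higher calls and 19 of the 27 FBL2-higher calls.

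The scaled calls fell on all 4 bases, 1 A, 3 C, 5 G and 5 U with FBL1 higher and 6 A, 7 C, 4 G and 10 U with FBL2 higher. The measurements with at least 1% signal numbered 39 A, 61 C, 49 G and 60 U, of 474 A, 578 C, 631 G and 454 U in all. Of the 14, 11 were also past 1% of reads unscaled. Of the 27, 16 had FBL2 above in percent of reads, and 3 of these 16 were past 1% of reads. Another 1 was equal, and 10 had FBL1 above and were turned by the scaling. Of these 10, 2 were called FBL1-higher by the unscaled rule. Most calls stood alone. Allowing gaps of up to 3 positions, the FBL1-higher calls made 12 single calls, with U689 counted in both its primer sets, and 1 pair. The FBL2-higher calls made 20 single calls, 2 pairs and 1 group of 3.

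**Figure D3:**
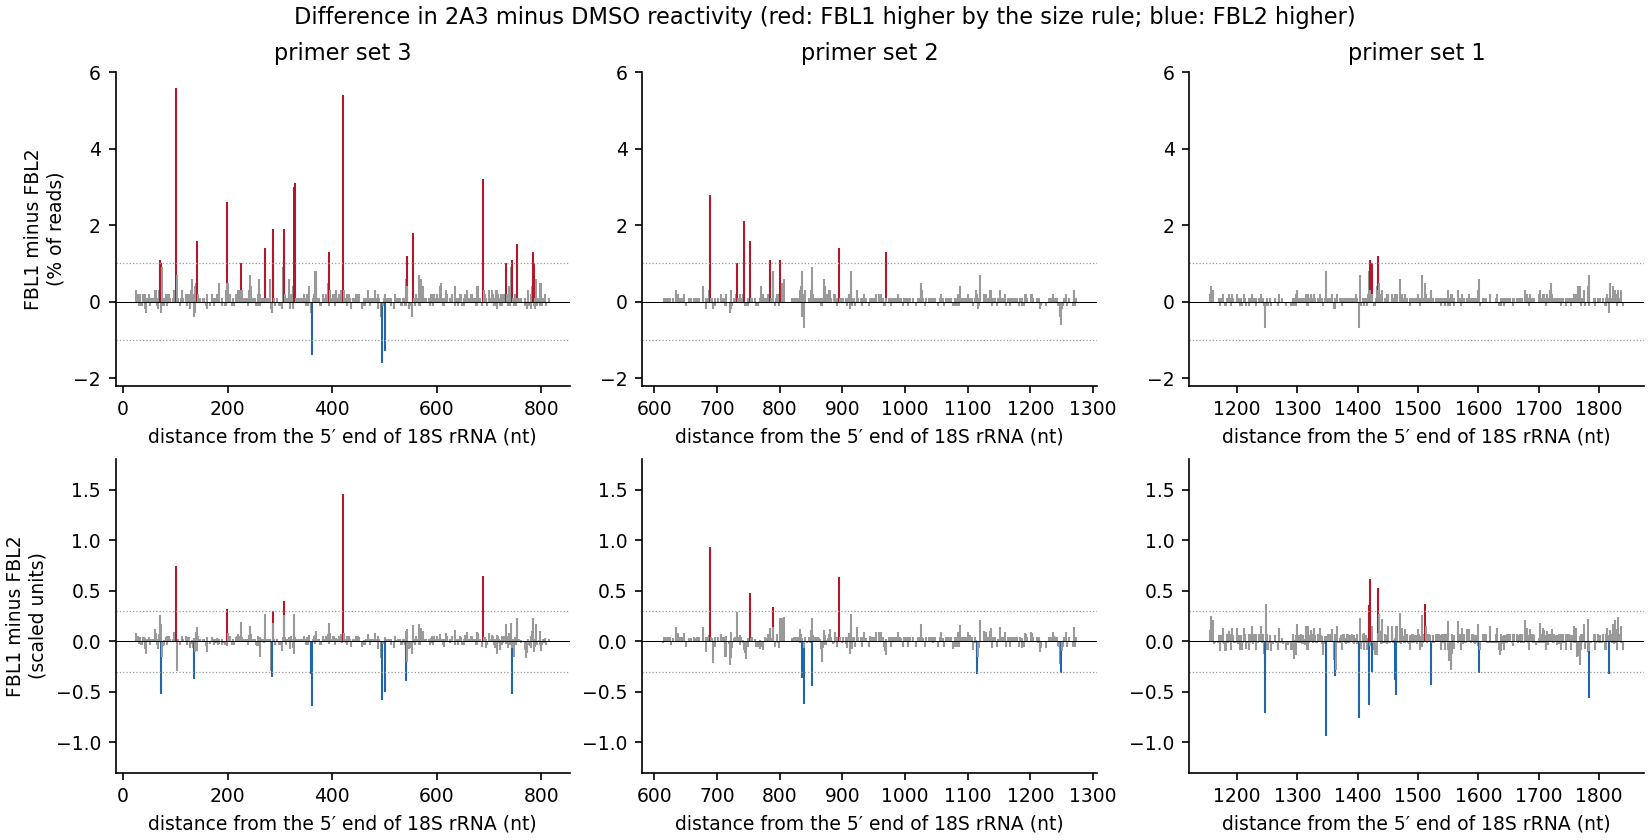
FBL1 minus FBL2 difference in 2A3 minus DMSO signal along 18S rRNA, in percent of reads (upper row) and in scaled units (lower row), for primer sets 3, 2 and 1 from left to right; red bars passed the size rule with FBL1 higher, blue bars with FBL2 higher, grey bars did not pass, and dotted lines mark the thresholds of 1% and 0.3 units. The upper row has 34 red and 3 blue bars, and the lower row 14 red and 27 blue.

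In the 5′ domain the largest difference relative to signal was at G420. Its 2A3 reactivity was 6.7% ± 0.057 in FBL1 and 1.3% ± 0.025 in FBL2, with 0.1% in DMSO in both, a difference of 5.4% of reads and of 1.45 ± 0.025 units. Both lines were above background, FBL1 by 6.6% of reads and FBL2 by 1.2%. The neighbours did not share this: G419 was at 0.4% in both lines, and G421 at 0.4% and 0.3%. A102 had the largest difference in percent of reads, with 25.7% ± 0.12 in FBL1 and 20.1% ± 0.10 in FBL2, or 5.6% of reads and 0.74 units. The adjacent A103, reactive in both lines, had 12.7% and 12.0%, so the 2 adenosines of this reactive pair differed unequally.

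G307 had 5.4% ± 0.052 in FBL1 and 3.5% ± 0.041 in FBL2, a scaled difference of 0.39 units, and the next base, G308, had 6.3% and 4.7%. U198 and U286 were the other scaled FBL1-higher calls of this domain, at 0.32 and 0.30 units. The latter value is at the threshold. U328 and G327, which carry some of the strongest signals of this stretch, had 3.1% and 3.0% of reads more in FBL1, but in scaled units 0.04 and 0.27, below the threshold. Their FBL1 over FBL2 ratios were 1.15 and 1.22, beside a ratio of 1.15 between the units of this library pair.

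Lower signal in FBL1 in percent of reads was past the threshold at U495, A500 and U361. U495 had 1.7% ± 0.030 in FBL1 and 3.3% ± 0.039 in FBL2, over 0.1% in DMSO in both, a difference of -1.6% of reads and of -0.58 ± 0.023 units. A500, within the window printed for U495 and named after its values were seen, had 2.2% ± 0.034 and 3.5% ± 0.041. A493, also in that window, had 1.1% and 1.5%, while the positions from C496 to C498 were at or below 0.3% in both lines. This stretch between positions 493 and 500 therefore held 3 reactive bases with less signal in FBL1, among unreactive neighbours and G499, which had 1.3% and 1.2%.

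U361 had 4.9% ± 0.049 in FBL1 and 6.2% ± 0.054 in FBL2, a difference of -1.4% of reads and of -0.64 ± 0.028 units. The adjacent A360 had 5.6% and 5.9%, which gave -0.32 units, and C362 was at 0.1% in both lines. C73 had nearly equal values, 10.7% ± 0.077 and 10.9% ± 0.076. It was called at -0.52 units, since equal values become a lower scaled value in FBL1, whose unit is larger. Its neighbours G71 and C72 had more signal in FBL1, 2.3% against 1.2% and 3.7% against 2.7%.

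In the central domain U689 had the largest scaled difference and was read by 2 primer sets. In primer set 2 it had 10.6% ± 0.047 in FBL1 and 7.8% ± 0.046 in FBL2, a difference of 2.8% of reads and 0.93 ± 0.043 units. In primer set 3 it had 9.5% ± 0.073 and 6.3% ± 0.057, a difference of 3.2% of reads and 0.64 ± 0.032 units. Its neighbours U688 and G690 differed by 0.1% to 0.3% of reads in both primer sets. U689 was the only position called with the same direction by the scaled rule in 2 primer sets.

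G895 was at 1.9% ± 0.020 in FBL1 and 0.5% ± 0.011 in FBL2, over 0.2% in DMSO in both, a difference of 1.4% of reads and 0.64 ± 0.031 units. G894 had 0.5% and 0.3%, and U896 0.2% and 0.1%. These adjacent positions thus differed by at most 0.2% of reads. C753 had 7.1% ± 0.038 and 5.5% ± 0.038 in primer set 2, or 0.48 units, and G789 had 2.3% ± 0.022 and 1.5% ± 0.020 over 0.9% in DMSO in both, or 0.34 units. In primer set 3 G789 had 1.8% and 0.8% over unequal DMSO values of 1.2% and 0.8%, or 0.17 units, under the threshold.

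The FBL2-higher calls of the central domain included 3 close together at C835, A837 and G838. G838 had 5.4% ± 0.034 in FBL1 and 6.1% ± 0.040 in FBL2, a difference of -0.7% of reads and of -0.62 ± 0.038 units. C835 and A837 each had 3.3% and 3.7%, at -0.36 and -0.37 units. Between them G836 had the opposite order, 7.9% and 7.1%, so not every base of this stretch had less signal in FBL1. G852 was called at -0.44 units although its reactivity was higher in FBL1, 13.5% ± 0.053 against 13.1% ± 0.059.

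In the 3′ major domain the FBL1-higher calls lay at C1419, G1420, C1433 and U1511. G1420 had 3.0% ± 0.054 in FBL1 and 1.9% ± 0.032 in FBL2, over 0.3% in DMSO in both, a difference of 1.1% of reads and 0.62 ± 0.069 units. C1433 had 4.7% ± 0.067 and 3.5% ± 0.043, over 0.6% in DMSO in both, or 0.53 ± 0.080 units, and C1419 had 2.8% ± 0.052 and 2.0% ± 0.033, or 0.36 units. Next to C1419, C1418 had 5.7% ± 0.074 and 5.6% ± 0.055 and was called in the opposite direction at -0.63 units. In percent of reads FBL1 was above at both bases of this cytidine run, so the direction at C1418 rests on the scaling alone. U1511 was at 0.8% ± 0.028 and 0.4% ± 0.014, with 0.3% and 0.4% in DMSO, and lies closest of these to the rounding step.

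The FBL2-higher calls with less signal in FBL1 also before scaling included C1247 and A1402. C1247 was at 0.9% ± 0.029 in FBL1 and at 1.6% ± 0.029 in FBL2 with primer set 1, a difference of -0.7% of reads and of -0.71 ± 0.058 units. In primer set 2 it had 0.5% and 0.9%, the same direction at -0.22 units, under the threshold. C1247 adjoins U1248, where DMSO alone gave 50.4% to 52.8% of reads. G1245, A1246, U1248 and C1249 differed by -0.1%, -0.2%, -0.1% and -0.1% of reads in primer set 1. For A1246, U1248, C1249 and A1250 primer set 2 gave -0.1%, -0.6%, 0% and -0.2%. Whether the difference at C1247 is separate from the events at U1248 was not tested. A1402 had 1.3% ± 0.035 and 2.0% ± 0.033, or -0.76 ± 0.061 units, and the next base, C1403, had the opposite order, 3.1% and 2.4%. G1348 was called at -0.93 units with 13.1% ± 0.11 in FBL1 and 12.2% ± 0.081 in FBL2, and its direction rests on the scaling alone. The 3′ minor domain, with 143 measurements, had 0 FBL1-higher calls and 2 FBL2-higher calls (1.40%), beside 0.655% and 1.26% over all measurements.

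**Figure D4:**
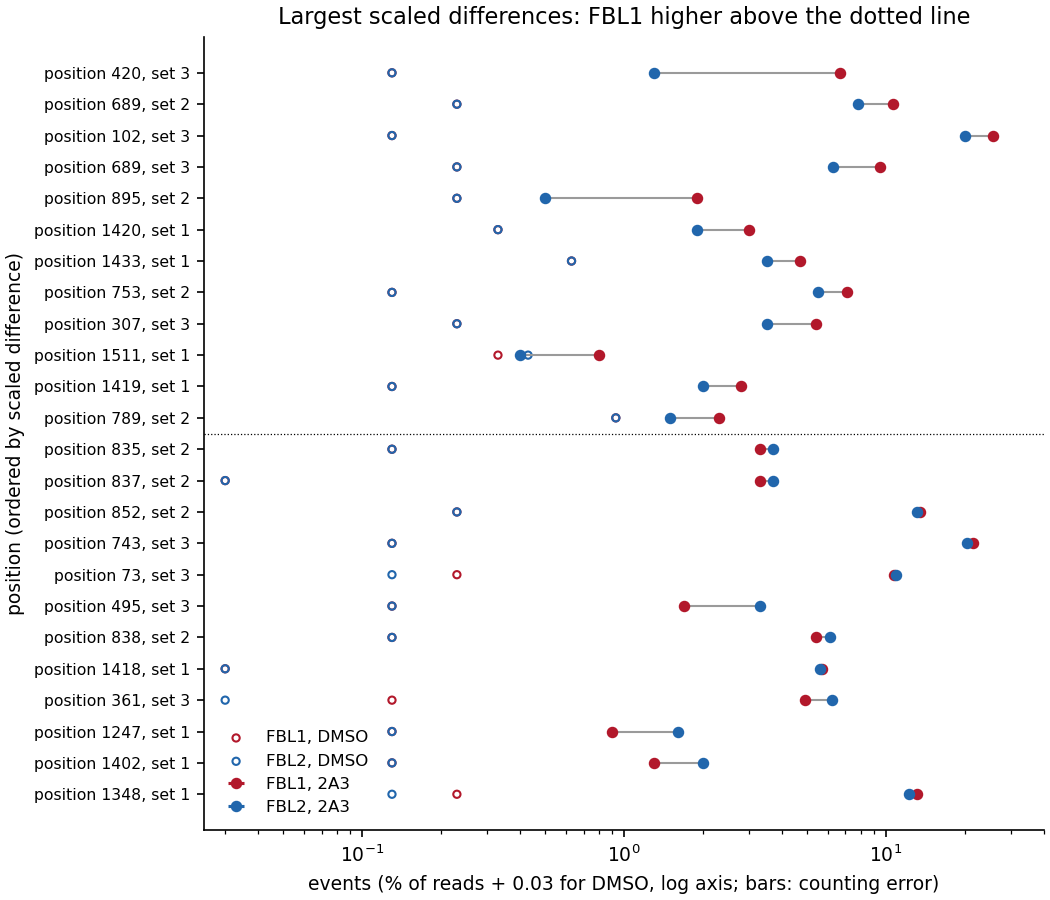
2A3 reactivity (filled points, with counting errors mostly smaller than the points) and DMSO reactivity (open points, shifted by 0.03 and overlapping where equal) in FBL1 (red) and FBL2 (blue), in percent of reads on a log axis, for the 4 largest scaled calls per direction and primer set. G420 at position 420 and G895 at position 895 have the widest gaps with FBL1 higher, and in the lower group the points of G1348, C1418, G852 and U743 are close to each other or have FBL1 to the right.

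Positions read by 2 primer sets are the nearest to a repeat measurement, though both amplicons come from the same lines and reagent treatments. Over the 202 positions shared by primer sets 2 and 3 the FBL1 minus FBL2 differences had a Pearson correlation of 0.858 and a Spearman correlation of 0.455 in percent of reads, and of 0.698 and 0.437 in scaled units. In percent of reads each set called 6, of which 5 were shared, at U689, U732, U743, C753 and C785, all with FBL1 higher. C753 had 6.2% against 4.7% in primer set 3, close to the ratio in primer set 2. U732 had 4.7% against 3.7% and 3.9% against 2.9%, and C785 11.5% against 10.5% and 10.5% against 9.5%, in primer sets 2 and 3.

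In scaled units 3 and 2 positions were called and 1, U689, was shared. U743 had 24.0% ± 0.071 against 21.9% ± 0.076 with primer set 2 and 21.4% ± 0.11 against 20.3% ± 0.10 in primer set 3, which gave -0.08 units, not called, and -0.52 units, called as FBL2-higher. In primer set 3 the unscaled and scaled rules thus called U743 in opposite directions. Where both sets had a signal of 1% or more, at 24 positions, 12 had FBL1 above in both, 2 had FBL2 above in both, 2 were opposite and 8 were equal in at least one. Over the 119 positions shared by primer sets 1 and 2, where mean signal was 0.0887% and 0.0992% of reads, the Pearson and Spearman correlations were 0.405 and 0.275 unscaled and 0.196 and 0.212 scaled, and no call was shared. Without U1248 the scaled Pearson correlation was 0.461.

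**Figure D5:**
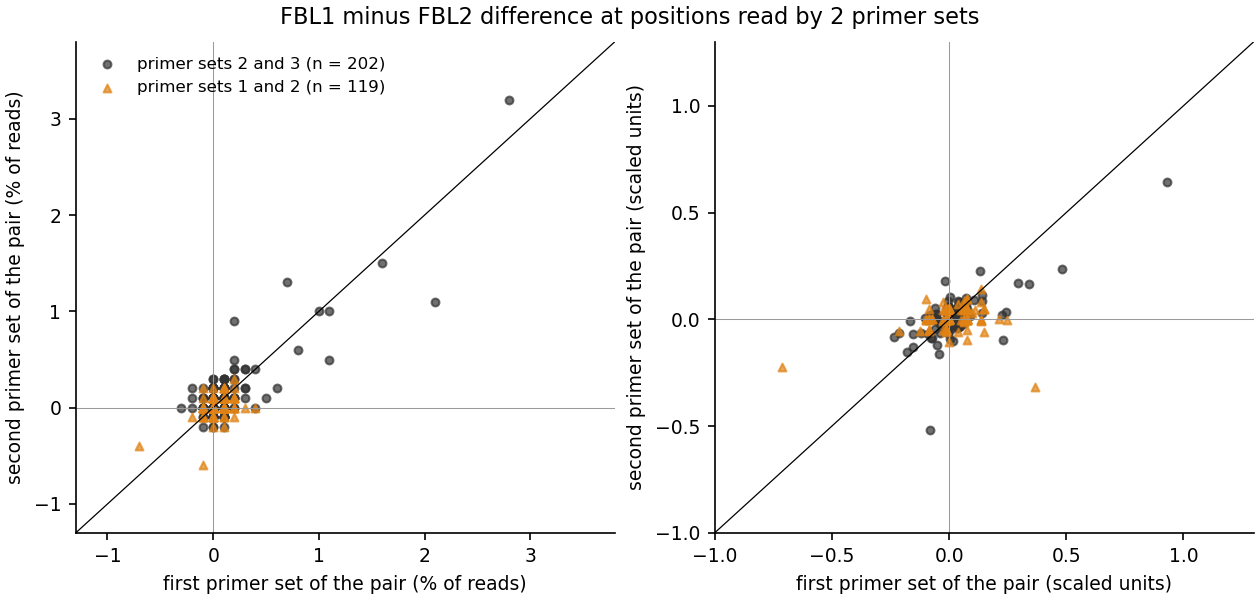
FBL1 minus FBL2 difference in one primer set against the other at positions read by both, in percent of reads (left) and in scaled units (right); circles are the 202 positions of primer sets 2 and 3, triangles the 119 of primer sets 1 and 2, and the diagonal marks equal differences. U689, at 2.8 and 3.2% of reads, is the point farthest to the upper right on the left.

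The last comparison took the sites that fibrillarin is known to methylate. All 42 listed 2′-O-methylation sites were measured, with the listed base, in 50 measurements. None was called by either rule in either direction, where the shares over all measurements, 0.655% and 1.26% scaled and 1.59% and 0.14% unscaled, would also give few or no calls among 50. The median difference was 0 over the list and 0 over all positions. FBL1 was above at 22 of the 50 measurements (44%), FBL2 at 8 and neither at 20, against 45.0% with FBL1 above over all positions. The differences ranged from -0.2% to 0.3% of reads, and 41 (82%) were within 1 rounding step, against 81.1% over all positions. Only 1 of the 50 measurements had a mean signal of at least 1% of reads.

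Am1678 had the largest scaled difference of the list, 0.21 ± 0.055 units, with 0.8% ± 0.028 in FBL1 and 0.5% ± 0.016 in FBL2 over 0.4% in DMSO in both. Gm683 had the most negative, -0.10 ± 0.030 units in primer set 2, with 0.6% ± 0.011 and 0.8% ± 0.015 over 0.6% in DMSO in both. In primer set 3 Gm683 had 0.4% and 0.5% over 0.5% and 0.6% in DMSO, a difference of 0% of reads. Neither site reached 0.3 units. Differences smaller than the rounding step were not detectable at any listed site.

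Of the 10 listed base-modified and decoding-centre positions 7 were measured, in 9 measurements. U1248, a hypermodified pseudouridine, had more events in DMSO than most positions had with 2A3. With 2A3 and primer set 1 it had 49.2% ± 0.22 in FBL1 and 48.9% ± 0.16 in FBL2, below DMSO in both lines. With primer set 2 it had 50.8% ± 0.11 and 51.2% ± 0.12, above DMSO in both lines. The unscaled difference was -0.1 ± 0.34% of reads in primer set 1 and -0.6 ± 0.21% in primer set 2. The scaled difference was 0.37 ± 0.27 units in primer set 1 and -0.32 ± 0.11 units in primer set 2, where it was called. In primer set 1 the negative signals are divided by unequal units, and with 1 factor for both lines the value was -0.080 units. C1337, an acetylated cytidine, had 0.5% and 0.3%, and G1639, a 7-methylguanosine, had 0.5% and 0.4%. A1832, an N6-methyladenosine, had 0.4% in FBL1 and 0.1% in FBL2 over 0.2% in DMSO in both.

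The decoding-centre bases, which read the codon and anticodon pairing, were close to equal in the lines. A1824 had 0.8% ± 0.028 in FBL1 and 0.7% ± 0.019 in FBL2, and A1825 had 0.9% ± 0.030 and 0.8% ± 0.021, with 0% listed in DMSO in both. G626 had 0.8% in both lines in primer set 2 and 0.5% in both in primer set 3. None of these differences exceeded 1 rounding step.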

How the data were processed

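SHAPE libraries of 18S rRNA amplicons from living cells were prepared for nanopore sequencing, per the labels' protocols. The submitters' processing notes name Bowtie2 and SAMtools with no version. The reference build and the kind of event counted were not given in the sources used here. Values deposited as reactivity are a fraction of reads, which the authors rounded to steps of 0.1% of reads. Per the file headers the coverage column gives the reads at each position, a signal never below 0. The authors' error column, of another kind, was checked to be the square root of reactivity divided by coverage. The authors' deposited 2A3 minus DMSO difference in percent equalled the recomputed one at every position of all 6 library pairs.

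Positions with coverage above 0 in all 4 files were used. DMSO was subtracted and FBL1 compared with FBL2, unscaled and scaled as described. Members, lists and rules were chosen with earlier results of these data known. Named positions are, per primer set, the 4 largest scaled calls and the 2 largest unscaled calls in each direction, calls shared by 2 primer sets, the extremes of each list, the base-modified and decoding-centre positions and the highest DMSO value; others are named as neighbours, to complete a count or after their values were seen.

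The rule was tested on simulated data with counting noise, rounding and 1 gain. Including every value tied at the percentile limits gave more false calls there, so ties were split by rank, after the real calls under both choices had been seen. Some false calls remained and were absent with the median-ratio unit. That unit recovers the 1 gain of the simulation, so its lack of false calls there does not carry over to the data. Alternatives covered scaling, DMSO subtraction, thresholds, smoothing, error, stretch ends, depth and primer sets. Python 3.11.15, numpy 2.4.6, pandas 2.3.3, scipy 1.17.1 and matplotlib 3.10.9 were used.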

Additional observations from a re-analysis of the deposited data

Results flagged for a closer look

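U1248 in scaled units was singled out because FBL1 minus FBL2 had opposite signs in the primer sets that read it, 0.37 units in primer set 1 and -0.32 units in primer set 2. The difference between the primer sets was not tested. In percent of reads the differences had the same sign, -0.1 in primer set 1 and -0.6 in primer set 2. In primer set 1 the signal is below 0 in both lines, and dividing it by unequal units turns the sign; with 1 factor for both lines the value was -0.080 units. Its DMSO values lay between 50.4% and 52.8% of reads, so each signal is a small difference of large values.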

How the results depend on the processing

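No paired analysis was possible because every line, reagent and primer set has a single library. The number of scaled calls depended on the scaling. FBL1-higher and FBL2-higher calls, 14 and 27 as reported, became 99 and 89 when scaled by the 90th percentile, 183 and 229 by box-plot scaling, and 3 and 4 with a sliding mean of 3 positions. With 1 factor for both lines, added after seeing the data, they became 54 and 6. A threshold of 0.2 gave 39 FBL1-higher calls, and 0.5 gave 7 and 12. Without primer set 3 there were 8 FBL1-higher calls, and without primer set 1 there were 15 FBL2-higher calls. The unscaled calls, 34 and 3, became 80 and 7 at 0.5% of reads, 8 and 0 at 2%, and 11 and 0 without primer set 3; the sliding mean left 0 FBL2-higher calls. Without DMSO subtraction the ratio of means was 1.13, 1.11 and 1.13 in primer sets 1, 2 and 3. Under 1 factor for both lines G1348, C1418, G852 and U743 in primer set 3 changed sign, at 0.64, 0.080, 0.19 and 0.33 units, and with box-plot scaling C753 in primer set 2 did, at -0.23. Of the 25 named and called measurements, 3 passed under every setting compared for named positions: G420, G838 and U361. All counts not given here stayed within 1.5 times the reported ones. Rounding to 0.1% of reads, not depth, limits the weak positions.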
